A study of Mus musculus with 22 samples.

Results

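The genes described here are 10 genes of fat storage in liver cells: the nuclear receptor gene Pparg, the lipoprotein receptor gene Vldlr, the fatty acid transporter gene Cd36, the droplet coat genes Plin2, Plin4 and Plin5, the droplet growth genes Cidea, Cideb and Cidec, and the lipase inhibitor gene G0s2. They were taken by symbol from the annotation of the arrays, and every probe for them that is not a control was used, 12 of 41174 probes and 10 of 28034 genes. The set was selected on adult array values: Pparg and Vldlr were chosen by their lower log2 ratios in livers of adult Tcf7l2 knockouts, so the adult knockout values are given as a description. The question put to the other 8 genes was whether that lower level extends to them, array by array.

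Liver RNA of 22 C57BL/6 mice was measured on 2-colour arrays, with liver RNA in the Cy3 channel and a common mouse reference RNA from Stratagene in the Cy5 channel of every array. The newborn groups were 4 Tcf7l2+/+ (wildtype) and 4 Tcf7l2-/- (TCF4KO) pups, whose livers were collected 5 h after birth, following an injection of 10% glucose (50 ul) beneath the skin. The adult groups were all Tcf7l2loxp/loxp and all given tamoxifen at 3 weeks of age. Controls had no Cre, and knockouts, labelled LTCF4KO, also carried SA-CreERT2, a Cre recombinase switched on by tamoxifen. The labels do not say which promoter drives it or which cells delete the gene. Between 1 and 2 months later, 4 controls and 4 knockouts went without food for 24 h, and 3 controls and 3 knockouts were fed. Samples within a group are named biological replicates in the labels.

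As background, Pparg pairs with a retinoid X receptor, binds DNA and switches on genes for taking up and storing fatty acids. It is best known from fat cells and is normally low in liver, where its level goes up in fatty liver. Triglyceride is kept in lipid droplets, whose surface carries perilipins that control access of lipases, CIDE proteins that let droplets fuse and grow, and G0S2, which blocks the lipase ATGL. Tcf7l2 encodes TCF4, a DNA-binding partner of beta-catenin in the Wnt pathway.

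Promoter windows of 9 of the genes were taken from RefSeq (GRCm38.p6), 14 windows in all, each from 250 bases before to 50 after a gene start, and searched on both strands. The motif CTTTGAT, bound by TCF proteins, lay in none of the 14 windows and in 3.73% of all 32851 windows. The related CTTTGAA lay in none of the 14 and in 5.14% of all. Other forms of the TCF motif were not searched for, so these counts do not show that the windows lack TCF sites. The similar CTTTGTT, for example, lies in the Cd36 sequence below. The direct repeat of AGGTCA spaced by 1 base (DR1), the form that Pparg and its partner bind, lay in none of the 14 and in 0.0396% of all. Its single core AGGTCA, which the repeat contains, lay in 6 windows of 4 genes (Pparg, Cd36, Plin2 and Plin5) and in 16.3% of all windows. A match is a description of these letters only. The 250 bases before a start are shown for the receptor gene itself and for Cd36 and Vldlr, the members that lay nearest to it across adult arrays, with AGGTCA or its reverse complement TGACCT in capitals. They are chr6:115362099-115362348 (plus strand) for Pparg, chr5:17835897-17836146 (minus strand) for Cd36 and chr19:27216770-27217019 (plus strand) for Vldlr, whose window holds neither.
Pparg promoter: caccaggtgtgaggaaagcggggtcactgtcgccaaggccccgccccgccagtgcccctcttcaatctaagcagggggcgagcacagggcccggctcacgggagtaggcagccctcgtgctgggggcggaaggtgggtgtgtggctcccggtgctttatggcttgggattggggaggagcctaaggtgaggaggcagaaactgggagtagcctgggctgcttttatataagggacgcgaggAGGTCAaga
Cd36 promoter: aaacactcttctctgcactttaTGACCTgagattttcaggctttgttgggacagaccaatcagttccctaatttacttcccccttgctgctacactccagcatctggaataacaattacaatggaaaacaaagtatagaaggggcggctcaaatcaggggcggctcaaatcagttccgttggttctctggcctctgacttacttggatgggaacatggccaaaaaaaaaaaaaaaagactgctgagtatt
Vldlr promoter: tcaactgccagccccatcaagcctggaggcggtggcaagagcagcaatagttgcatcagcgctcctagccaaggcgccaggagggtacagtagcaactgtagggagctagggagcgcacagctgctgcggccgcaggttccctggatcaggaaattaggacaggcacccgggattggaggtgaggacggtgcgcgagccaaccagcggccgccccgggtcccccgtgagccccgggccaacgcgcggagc

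Every value below is a log2 ratio of liver over reference unless another quantity is named, and each change is a difference of such ratios, given with its standard error (SE) or 95% confidence interval. A gene passed, or was called, where limma's p, adjusted over all genes tested by Benjamini-Hochberg, was under 0.05. Members' probes lie on build mm9, and the brightest was used where a gene had more than 1. Liver spots well above background made up 50.2% to 64.4% on newborn arrays, 50.2% to 62.0% on fasted arrays and 22.8% to 31.2% on fed arrays. Newborn wild types lay on slide 1 and newborn knockouts on slide 2, so slide and genotype cannot be told apart there. Fasted arrays filled slides 3 and 4, each with 2 controls and 2 knockouts, and fed arrays slides 5 and 6, so feeding state and slide go together. The brightest Tcf7l2 probe read -1.28 to -0.32 in newborn wild types and -1.85 to -1.57 in knockouts (change -0.87 ± 0.19, limma adjusted p = 0.0590). Another Tcf7l2 probe, well above background on all newborn arrays, was not lower, at -0.31 to 0.08 in wild types and -0.09 to 0.16 in knockouts. A further probe was well above background on no newborn array. In adult knockouts the brightest Tcf7l2 probe was not lower (0.35 ± 0.17 fasted, 0.21 ± 0.20 fed). A probe outside the deleted part checks nothing, so adult groups are named by their labels alone. All 7 hepatocyte markers cleared the background on each of the 22 arrays. The 10 exocrine pancreas markers averaged 5.25 and 5.13 in fasted knockouts 2 and 3 and 0.44 to 0.69 on the other fasted arrays.

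Pparg was lower in every adult knockout liver than in every control of the same feeding state. It was read by 10 copies of one probe on chromosome 6, at 115440213 to 115440272, whose SD within an array was 0.03 to 0.24. Fasted controls 1 to 4 read 1.59, 1.88, 1.67 and 1.28, and fasted knockouts 1 to 4 read -0.25, -0.33, -0.81 and -1.16. Fed controls 1 to 3 read 1.73, 2.16 and 2.07, and fed knockouts read -0.79, 0.27 and -0.75. The groups did not overlap in either state. The knockout change was -2.25 ± 0.25 (SE) in fasted livers, 4.75-fold, with an interval of -2.79 to -1.70. It was -2.41 ± 0.29 in fed livers, 5.31-fold, with an interval of -3.04 to -1.78. Fitted on the fed groups alone, Pparg did not pass (limma adjusted p = 0.0689). In bulk liver, fewer cells expressing a gene and less RNA per cell cannot be told apart. Fed knockout 3 had 0 of 10 Pparg spots well above background and fed knockout 1 had 7 of 10.

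In newborn livers the Pparg groups overlapped. Wild types 1 to 4 read 0.44, 0.71, 0.56 and 0.24, and knockouts 1 to 4 read 0.27, -0.14, -0.17 and 0.21. Knockout 1 lay inside the wild-type range and the other 3 below it. The change of -0.44 ± 0.15 did not pass (limma adjusted p = 0.206).

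Vldlr, the receptor that takes up triglyceride-rich particles, was also lower in every adult knockout than in every control. Its brighter probe lies on chromosome 19 at 27324042 to 27324101. Fasted controls read -1.78, -1.79, -1.65 and -2.45, and fasted knockouts read -3.59, -4.03, -3.63 and -3.82. Fed controls read -0.99, -1.39 and -1.02, and fed knockouts read -3.73, -4.05 and -3.71. The ranges were separate in both states, by a change of -1.85 ± 0.17 (interval -2.23 to -1.48) fasted and -2.70 ± 0.20 (interval -3.13 to -2.26) fed. No fed knockout array had this probe well above background. The mean liver signal of fed controls was 5.79-fold above the higher of each knockout array's dimmest detected probe and this probe. That is not a firm lower bound. Plin4, at 10.32 on the log2 intensity scale on fed knockout 3, was also not well above background. The second probe, at 27328369 to 27328428, differed by -1.28 in fasted livers, with separate ranges, and was well above background on no fed array. In newborns the brighter probe read -3.36, -3.13, -2.43 and -3.69 in wild types and -3.78, -2.59, -3.22 and -3.16 in knockouts. Those ranges overlapped (change -0.03 ± 0.30, limma adjusted p = 0.984).

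**Figure D1:**
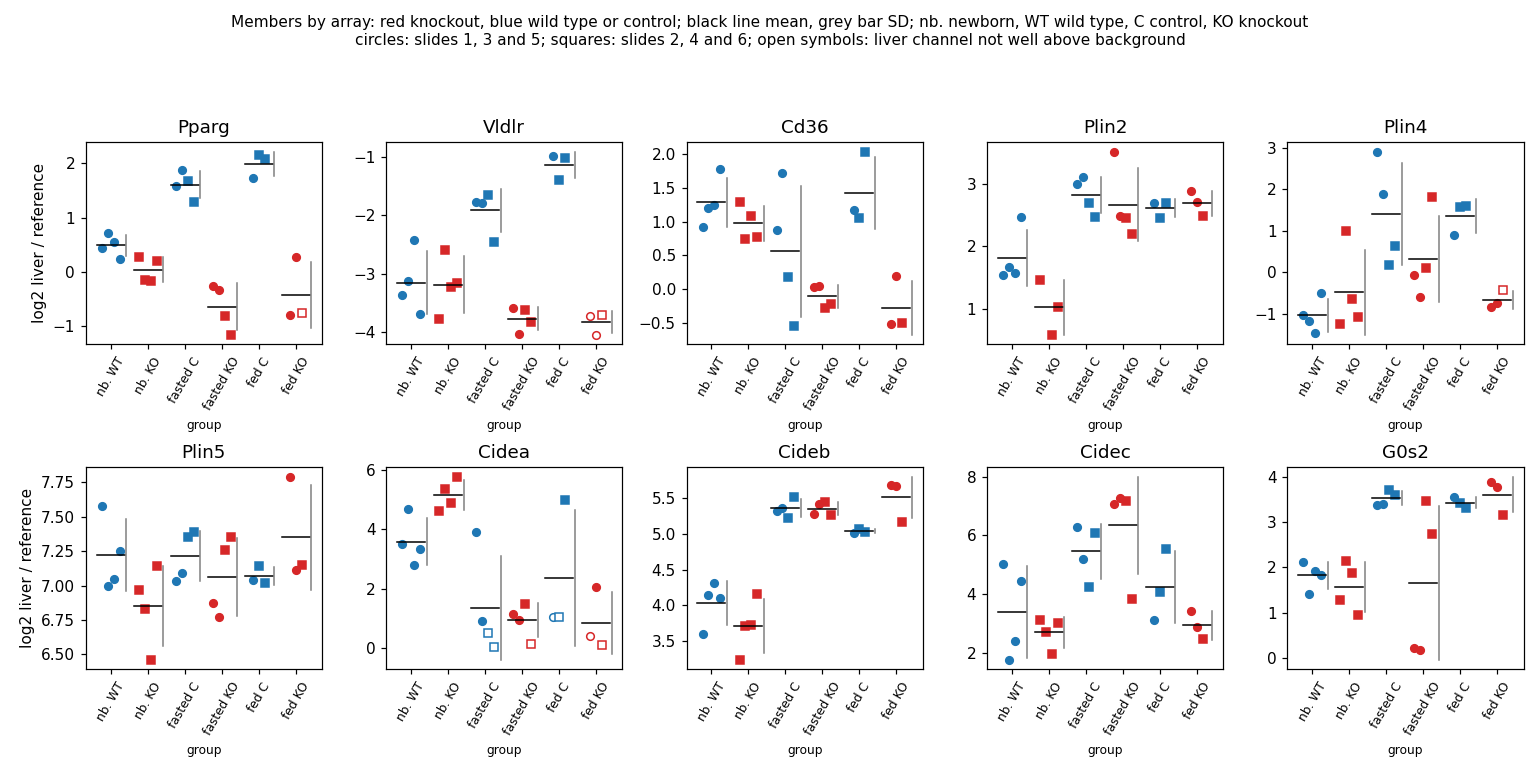
Log2 liver over reference (vertical axis) of the 10 genes on each of 22 arrays, by group (horizontal axis), with each group's mean (black line) and SD (grey bar); filled symbols are arrays on which the liver channel was well above background. Pparg and Vldlr separate adult knockouts (red) from controls (blue) in both feeding states, and Cd36 and Plin4 do so in fed livers. Among adult arrays, G0s2 is far lower on fasted knockouts 1 and 2 than on the rest.

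Cd36, which brings fatty acids across the cell membrane and is a target of Pparg, was lower in fed knockouts than in fed controls, while fasted groups overlapped. Its brighter probe maps to chromosome 5 between 17289110 and 17291542. Fed controls read 1.17, 1.06 and 2.04, and fed knockouts read -0.52, 0.19 and -0.50. The change was -1.70 ± 0.45, 3.24-fold, with an interval of -2.66 to -0.73, and it was -1.33 on slide 5 and -2.05 on slide 6. Fasted controls read 0.87, 1.73, 0.18 and -0.54, and fasted knockouts read 0.03, 0.04, -0.28 and -0.22. All 4 fasted knockouts lay inside the wide range of the fasted controls (change -0.67, interval -1.50 to 0.17). The difference came to -1.26 on slide 3 and -0.08 on slide 4. The other Cd36 probe differed by -1.53 in fed livers, again with separate ranges, and by -0.59 in fasted livers. Newborn wild types read 0.92, 1.20, 1.25 and 1.78 and newborn knockouts 1.30, 0.75, 1.08 and 0.78, which overlap (change -0.31 ± 0.20, limma adjusted p = 0.591).

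The 3 perilipin genes did not move as a group. Plin2, the coat protein found on droplets of nearly all cells, differed little in its ratio between adult genotypes. Its probe lies on chromosome 4 at 86302676 to 86302735. Fasted controls read 3.00, 3.10, 2.70 and 2.47, and fasted knockouts 3.51, 2.48, 2.46 and 2.20. Fed controls read 2.70, 2.45 and 2.69, and fed knockouts 2.88, 2.71 and 2.48. Both pairs of groups overlapped, with changes of -0.16 (interval -0.68 to 0.36) fasted and 0.08 (interval -0.52 to 0.68) fed. On fasted knockout 1, the highest of its group, the reference channel was at 11.76 on the log2 intensity scale, against 13.92 to 14.45 on the other fasted arrays. The liver signal of fasted knockout 1 was 15.27, against 16.18 to 17.45 on the other fasted arrays. Mean Plin2 liver signal was 16.15 in fasted knockouts and 17.07 in fasted controls, lower in knockouts. The part of the reference channel in the ratios was not tested. In newborns the wild types read 1.54, 1.67, 1.58 and 2.47 and knockouts 1, 3 and 4 read 1.47, 0.59 and 1.04. The spot of knockout 2 was dropped by the outlier mark. The 3 measured knockouts lay below all 4 wild types, and the change of -0.78 ± 0.28 did not pass (limma adjusted p = 0.253).

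Plin4, a perilipin of small new droplets and a target of Pparg in fat cells, was lower in each fed knockout than in each fed control. It was read on chromosome 17 at 56240055 to 56240114. Fed controls read 0.90, 1.58 and 1.61, and fed knockouts -0.82, -0.74 and -0.43. Plin4 was not well above background on fed knockout 3, the only knockout on slide 6. The change was -2.02 ± 0.66, 4.07-fold, with an interval of -3.44 to -0.61, and it was -1.68 on slide 5 and -2.02 on slide 6. Fasted controls read 2.91, 1.90, 0.17 and 0.65, and fasted knockouts -0.05, -0.60, 0.12 and 1.82. On slide 3 both knockouts lay below both controls (-2.73), and on slide 4 the difference was 0.56 in the other direction. The fasted interval was -2.31 to 0.14 around -1.08. Newborn wild types read -1.02, -1.17, -1.46 and -0.49, and newborn knockouts -1.23, 1.01, -0.63 and -1.07. Knockout 2 stood above the rest, and the change of 0.55 ± 0.45 did not pass (limma adjusted p = 0.695).

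Plin5, the perilipin of tissues that burn fat, was nearly level across the adult groups. It lies close to Plin4, at 56251101 to 56251160 of chromosome 17. Fasted controls read 7.03, 7.09, 7.35 and 7.39, and fasted knockouts 6.87, 6.77, 7.26 and 7.35. Fed controls read 7.04, 7.14 and 7.02, and fed knockouts 7.79, 7.11 and 7.15. Only fed knockout 1 stood clearly apart, and the changes were -0.15 (interval -0.52 to 0.21) fasted and 0.29 (interval -0.14 to 0.71) fed. Newborn wild types read 7.58, 7.00, 7.05 and 7.25 and knockouts 6.97, 6.83, 6.46 and 7.14, with the top knockout inside the wild-type range (change -0.37 ± 0.18, limma adjusted p = 0.423).

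Among the CIDE genes, Cideb, which hepatocytes use to enlarge lipoproteins and droplets, varied least. Its probe lies on chromosome 14 at 56373987 to 56374046. Fasted controls read 5.32, 5.36, 5.22 and 5.52, and fasted knockouts 5.28, 5.42, 5.45 and 5.26. These ranges overlapped almost wholly, with a change of 0.00 and an interval of -0.25 to 0.25. Fed controls read 5.01, 5.07 and 5.03, and fed knockouts 5.68, 5.67 and 5.17. Each fed knockout lay above each fed control, by 0.47 ± 0.14 on average (interval 0.18 to 0.76). The difference was 0.66 on slide 5 and 0.12 on slide 6. The mean of 7 hepatocyte markers was also higher there, at 7.58 to 7.84 in fed knockouts and 6.90 to 7.43 in fed controls, and its part in the Cideb value was not tested. On the log2 intensity scale the mean Cideb liver signal was 12.44 in fed knockouts and 12.41 in fed controls. The reference channel was at 6.79 to 7.11 in fed knockouts and 7.22 to 7.65 in fed controls. The part of the reference channel in the Cideb difference was not tested. Newborn wild types read 3.60, 4.14, 4.31 and 4.11 and knockouts 3.24, 3.71, 3.73 and 4.16 (change -0.33 ± 0.21, limma adjusted p = 0.587).

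Cidec is the droplet fusion gene also called Fsp27 and a target of Pparg in fatty liver. It had the widest spread of the members whose liver signal was well above background on every adult array. Its reference signal was dim, at 5.54 to 6.81 on the log2 intensity scale on adult arrays, and was well above background on 20 of 22 arrays. It was read on chromosome 6 at 113374693 to 113374752. Fasted controls read 6.28, 5.21, 4.25 and 6.10, and fasted knockouts 7.06, 7.27, 7.19 and 3.84. Fasted knockouts 1 to 3 lay above all fasted controls and knockout 4 below them all, so the change of 0.88 had an interval of -0.74 to 2.49. Fed controls read 3.11, 4.06 and 5.55, and fed knockouts 3.43, 2.88 and 2.47. One fed knockout lay inside the control range, with a change of -1.31 and an interval of -3.17 to 0.55. That difference was 0.05 on slide 5 and -2.33 on slide 6. Newborn wild types read 5.01, 1.75, 2.38 and 4.44 and knockouts 3.13, 2.71, 1.94 and 3.00, all inside the wild-type range (change -0.70 ± 0.67, limma adjusted p = 0.755).

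Cidea, a CIDE gene typical of brown fat that fatty liver also expresses, was measured well only in newborns. Wild types read 3.52, 4.67, 2.81 and 3.33, and knockouts 4.63, 5.36, 4.88 and 5.77. Knockouts 2, 3 and 4 lay above every wild type and knockout 1 just below wild type 2. The change of 1.58 ± 0.38, 2.99-fold, did not pass (limma adjusted p = 0.0857). It passed without wild type 2 (1.94, limma adjusted p = 0.0399) and in the liver channel alone (2.19, limma adjusted p = 0.0252), and over all alternatives the adjusted p ran from 0.0252 to 1. Fasted controls read 3.90, 0.92, 0.53 and 0.05 with 2 of 4 arrays well above background, and fasted knockouts 1.16, 0.96, 1.50 and 0.16 with 3 of 4. Fed controls read 1.04, 1.07 and 5.00 and fed knockouts 0.41, 2.06 and 0.10, with 1 of 3 well above background in each. The high adult values were single arrays, fasted control 1 and fed control 3.

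Markers of fat cells varied over the same arrays. Of 9 such markers, 4 to 8 were well above background on fasted controls, 3 to 6 on fasted knockouts, 2 to 3 on fed controls and 2 on fed knockouts. Their mean ran from 1.25 to 2.19, 1.11 to 1.86, 1.39 to 1.75 and 1.31 to 1.47 in these groups. That mean leans on Car3, which averaged 5.73, 6.03, 7.02 and 7.29 in the same order, against 1.30, 1.03, 0.32 and 0.54 for Adipoq. It is therefore a weak measure of fat cells. The fat cell hormone gene Adipoq read 2.65, 1.26, 0.16 and 1.12 on the fasted control arrays, against 0.95, 1.90, 1.39 and -0.13 for fasted knockouts, and was well above background on no fed or newborn array. Lep was not well above background on any array. Fasted control 1 thus had the highest Adipoq beside the highest Cidea, Cidec and Plin4 of its group, and fasted knockout 4 the lowest Adipoq beside the lowest Cidec but the highest Plin4. Cfd, a protease gene of fat cells, read 2.23, 5.57 and 3.86 on the fed control arrays, against 0.69, 1.56 and 2.42 for fed knockouts (-2.33 ± 1.13, limma adjusted p = 0.737). It was singled out after its values were seen. Of the 6 fat cell markers tested in fed knockouts, 2 lay below 0 and 4 above, with a median of 0.02. The part of these cells in the values of Cidea, Cidec, Plin4 and Cd36 was not tested.

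G0s2, the gene of the ATGL inhibitor and a Pparg target, was far lower on 2 fasted knockout arrays than on any other adult array, and fasted knockout 4 also lay below the control range. Fasted controls 1 to 4 read 3.39, 3.41, 3.72 and 3.60, and fasted knockouts 1 to 4 read 0.22, 0.18, 3.47 and 2.75. Knockouts 1 and 2, both on slide 3, lay far below every other adult array, knockout 3 lay inside the control range and knockout 4 below it. The change was -1.88 ± 0.60 with an interval of -3.16 to -0.59, and it was -3.20 on slide 3 and -0.55 on slide 4. Fed controls read 3.55, 3.43 and 3.32, and fed knockouts 3.90, 3.78 and 3.16, which overlap (0.18, interval -1.30 to 1.66). Newborn wild types read 2.11, 1.42, 1.93 and 1.83 and knockouts 1.27, 2.15, 1.87 and 0.95, which overlap as well (change -0.26 ± 0.26, limma adjusted p = 0.770).

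The G0s2 values rest on 1 probe on chromosome 1 (mm9, 195098925 to 195098984, minus strand), shown because it covers the start of the coding sequence, with the 44 bases from the first ATG in capitals.
G0s2 probe: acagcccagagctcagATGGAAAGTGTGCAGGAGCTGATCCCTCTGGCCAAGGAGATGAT
Its liver signal on the log2 intensity scale was 8.34 and 7.99 on fasted knockouts 1 and 2, 12.52 and 10.74 on knockouts 3 and 4, and 12.36 to 14.56 on fasted controls. The reference channel, with 1 common RNA throughout, differed between arrays as well. It was 8.12, 7.81, 9.05 and 7.99 on fasted knockouts 1 to 4 and 9.84, 8.95, 10.84 and 9.04 on fasted controls 1 to 4. Its SD over the 14 adult arrays was 0.85, against a median of 0.28 over 17362 genes whose reference signal was well above background on all of them. The ratios on fasted knockouts 1 to 4 were 0.22, 0.18, 3.47 and 2.75. The part of the reference channel in the low ratios was not tested.

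**Figure D2:**
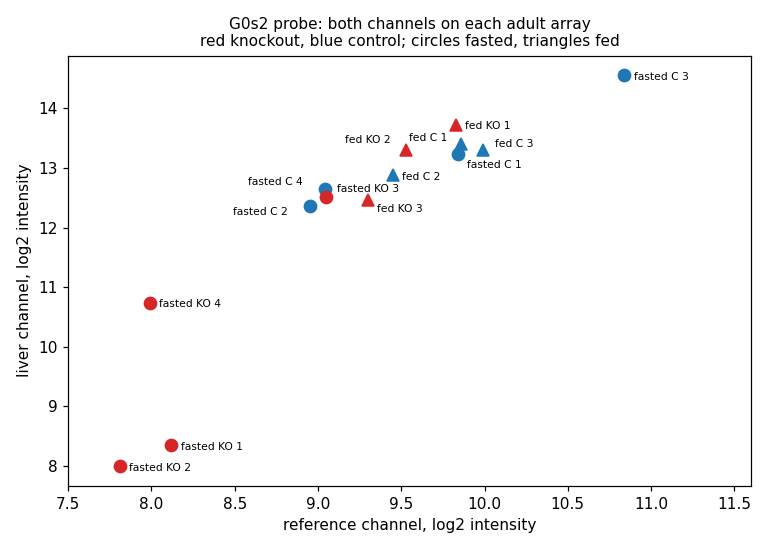
Liver channel (vertical axis) against reference channel (horizontal axis) of the G0s2 probe, both as log2 intensity after loess and scaling between arrays, 1 point per adult array. Fasted knockouts 1 and 2 lie at 8.34 and 7.99 in the liver channel while the other arrays lie at 10.74 or more.

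Array by array, Pparg and Vldlr were below every control on 7 of 7 adult knockout arrays, and the 8 other genes had no such common pattern. Of these 8, fasted knockouts 1, 2, 3 and 4 had 3, 3, 2 and 3 genes below the range of the fasted controls and 2, 1, 1 and 0 above it. Fed knockouts 1, 2 and 3 had 3, 3 and 5 below the range of the fed controls and 4, 3 and 2 above it. Over all genes, 15.4% to 25.8% lay below the control range on a fasted knockout array and 19.0% to 24.6% above it, and on fed knockout arrays 20.4% to 23.7% lay below and 27.0% to 32.5% above. Plin4 was below the mean of the controls on its own slide on 6 of 7 arrays, with fasted knockout 4 above it by 1.41. Cd36 was below that mean on 7 of 7, with differences of -1.26 on both slide 3 arrays but -0.11 and -0.05 on the slide 4 arrays.

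**Figure D3:**
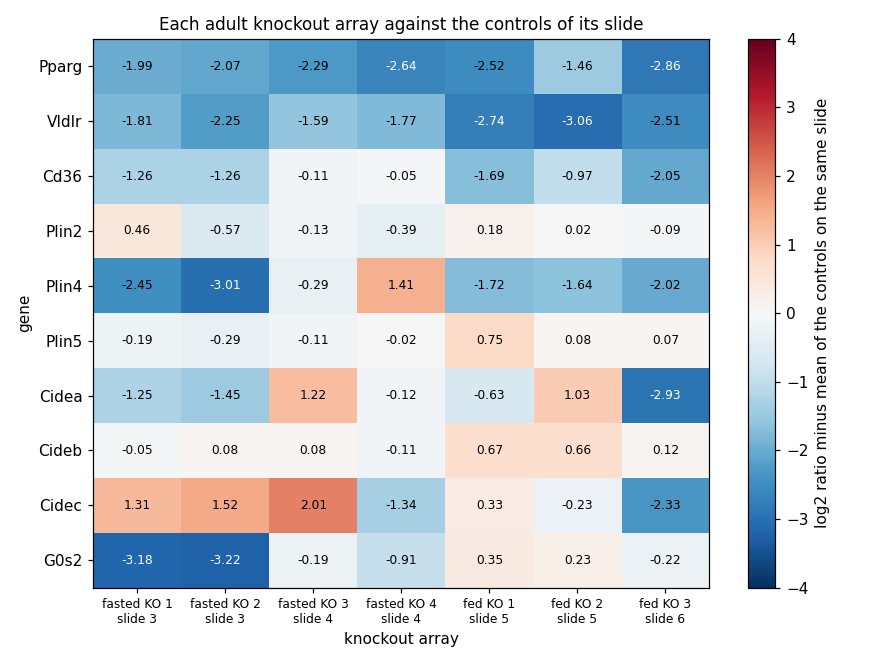
Log2 ratio on each adult knockout array minus the mean of the controls on the same slide (colour and printed number), for the 10 genes (rows) and 7 knockout arrays (columns). Pparg and Vldlr are below 0 on all 7 arrays, whereas Cidec, Cidea, Plin4 and G0s2 differ in size or direction between arrays of one feeding state.

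Counted over the members, 2 of 10 passed limma in fasted knockouts and 2 of 10 in fed knockouts, Pparg and Vldlr each time, which is how they were chosen. Over all 17144 genes limma called 80 in fasted knockouts (0.467%) and 38 in fed knockouts (0.222%). None of the 8 other genes passed in either state. Group ranges of Pparg and Vldlr were separate in both states, and these genes were chosen on such values. Of the 8 other genes, 0 had separate ranges in fasted livers, against 6.50% of all genes. In fed livers 3 of these 8 had separate ranges, against 11.2% of all genes. Plin4 and Cd36 were lower there (2 of 8, against 4.19% of all genes) and Cideb was higher. Among newborns 0 of 10 passed, against 1.37% of 17124 genes, with 3 of 10 at an unadjusted p under 0.05, against 13.2% of all genes. The ranges were separate for Plin2 alone, against 9.38% of all genes. The median newborn change of the 10 genes was -0.32, and that of all genes -0.01.

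**Figure D4:**
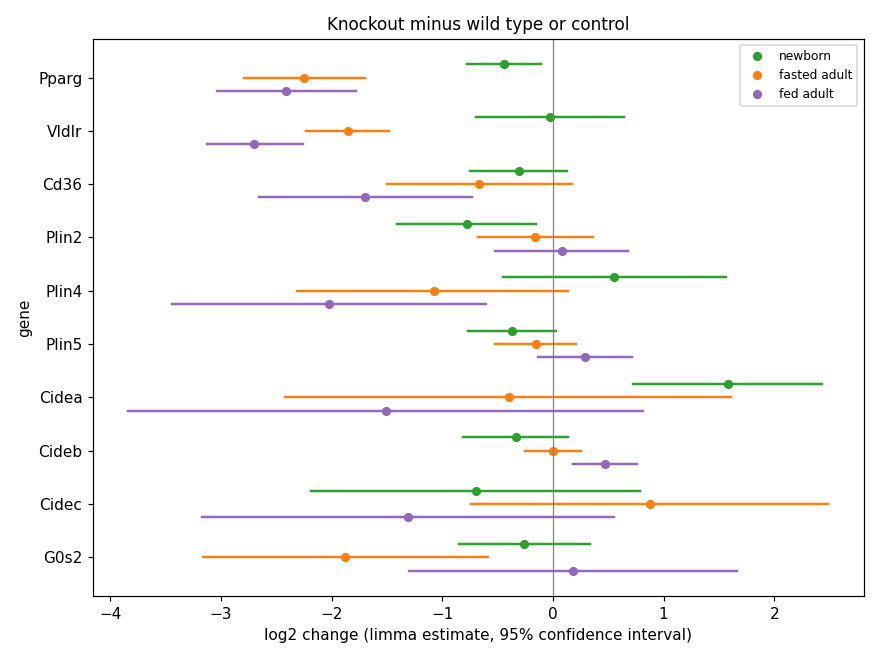
Knockout minus wild type or control as log2 change (horizontal axis) for the 10 genes (rows) in newborn, fasted adult and fed adult livers; points are limma estimates and bars 95% confidence intervals. The adult intervals of Pparg and Vldlr lie wholly below -1, those of Plin5, Plin2 and fasted Cideb lie near 0, and those of Cidec and Cidea are wide.

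Most of these genes were without a call between fasted and fed livers. In controls 1 of 10 passed, against 36.8% of 17144 genes, and in knockouts 2 of 10, against 35.7%. Fasted and fed ranges were separate for 2 of 10 in controls (43.6% of all genes) and 1 of 10 in knockouts (42.5%). Vldlr fell in fasted controls, from a mean of -1.13 to -1.92 (change -0.78 ± 0.19, limma adjusted p = 0.00618), with all 4 fasted controls below all 3 fed controls. With slide as a random block the change was -0.78 (limma adjusted p = 0.0109). It lost its call with the deposited log ratios (-0.41, limma adjusted p = 0.264) and with local backgrounds marked as outliers kept (-0.41, limma adjusted p = 0.329). Among knockouts Vldlr differed by 0.06 ± 0.19 (limma adjusted p = 0.826), with the fed knockouts not well above background.

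Cidec rose with fasting in knockouts, from a mean of 2.93 to 6.34 (change 3.41 ± 0.81, 10.6-fold, limma adjusted p = 0.00590). All 4 fasted knockouts lay above all 3 fed knockouts, knockout 4 at 3.84 by the least. Without fasted knockouts 2 and 3, whose pancreas markers were high, it was 2.52 and did not pass (limma adjusted p = 0.0739), nor did Cidec pass with local backgrounds kept (3.52, limma adjusted p = 0.0535). In controls the Cidec change was 1.22 ± 0.81 (limma adjusted p = 0.255), with fed control 3 inside the fasted range. On the log2 intensity scale the mean Cidec liver signal was 12.58 in fasted and 9.33 in fed knockouts, and 11.11 in fasted and 10.93 in fed controls. The part of the dim reference channel in the Cidec changes was not tested. G0s2 fell with fasting in knockouts (-1.96 ± 0.64, limma adjusted p = 0.0307), with fasted knockouts 1 and 2 lowest and knockout 3 inside the fed range. It did not pass without fasted knockout 1 (-1.48), fasted knockout 2 (-1.47), fed knockout 1 (-1.81) or fed knockout 2 (-1.87). In controls G0s2 differed by 0.10 ± 0.64 (limma adjusted p = 0.922). Pparg changed in neither genotype by the test, at -0.38 ± 0.27 in controls (limma adjusted p = 0.298) and -0.22 ± 0.27 in knockouts (limma adjusted p = 0.561). Cd36 stood at -0.86 ± 0.42 in controls (limma adjusted p = 0.125), and passed without fasted control 2 (-1.25, limma adjusted p = 0.0150). Hepatocyte markers themselves were lower in fasted livers, 6 of 7 passing in controls and 7 of 7 in knockouts, and their part in these changes was not tested.

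**Figure D5:**
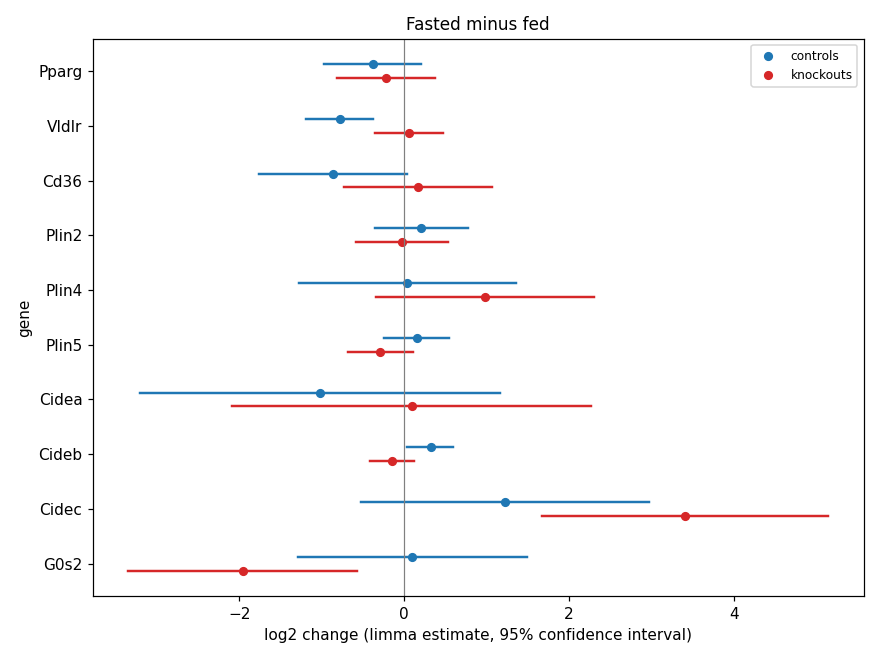
Fasted minus fed as log2 change (horizontal axis) for the 10 genes (rows) in controls and in knockouts; points are limma estimates and bars 95% confidence intervals. Cidec in knockouts lies at 3.41 and G0s2 in knockouts at -1.96, while the intervals of most other genes include 0.

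Whether the knockout difference itself depended on feeding was tested as an interaction. None of 17144 genes passed (0%), with 1136 (6.63%) at an unadjusted p under 0.05 in limma. Among the members 3 of 10 had an unadjusted p under 0.05. They were Vldlr (0.84 ± 0.27, limma adjusted p = 0.667), Cideb (-0.47 ± 0.18, limma adjusted p = 0.701) and G0s2 (-2.06 ± 0.91, limma adjusted p = 0.738). The larger fed difference of Cd36 and Plin4 was therefore not shown to differ from the fasted one (1.03 ± 0.59 and 0.94 ± 0.87, limma adjusted p = 0.783 and 0.874).

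Other genes of the pathway gave few calls by genotype. Of 14 further genes of droplet coat, growth and size, 1 was lower in fasted knockouts and none in fed or newborn knockouts. It was Fitm1, a membrane protein of the endoplasmic reticulum that helps droplets form. Fasted controls read 3.81, 3.65, 3.80 and 3.46, and fasted knockouts 1.64, 1.42, 2.44 and 1.08, well apart (-2.04 ± 0.35, limma adjusted p = 0.0174). The call ended without fasted control 1, 2 or 3 or fasted knockout 1 or 2 (adjusted p = 0.0542 to 0.0658). The value was -0.93 with the deposited log ratios and -0.21 with local backgrounds kept, neither of which passed. Fed controls read 2.37, 3.17 and 3.15 and fed knockouts 1.15, 2.18 and 0.45, separate as well (-1.64 ± 0.40, limma adjusted p = 0.211). Fitm1 was not well above background on fed knockouts 1 and 3. The median of the list was -0.11 fasted and -0.02 fed, beside 0.01 and 0.02 for all genes.

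None of 16 triglyceride synthesis genes, 11 triglyceride breakdown genes or 15 partners and relatives of Pparg passed in adult knockouts. Mogat1, an acyltransferase gene of triglyceride synthesis that Pparg is known to switch on in liver, came nearest in its list in fed livers (-1.74 ± 0.55, limma adjusted p = 0.405), but was well above background on 1 of the 6 fed arrays. Rxrg, the gene of a partner receptor, came nearest in its list in fasted livers (-0.82 ± 0.30, limma adjusted p = 0.310). Of 13 fatty acid uptake and binding genes tested in adults none passed, and of 14 in newborns Slc27a2, a fatty acid activating enzyme, fell by 0.87 ± 0.17 (limma adjusted p = 0.0425). That call ended with each of the 8 newborn arrays left out in turn (adjusted p = 0.0520 to 0.133).

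Targets of Ppara, the related receptor that drives fat burning in fasting, gave 1 lower gene in each adult state. Acot1, a thioesterase gene, was lower in fasted knockouts (-2.05 ± 0.40, limma adjusted p = 0.0449), but passed in only 9 of 20 tested alternatives (adjusted p = 0.0195 to 0.189). Among the losses were those without fasted control 2, 3 or 4 or fasted knockout 1 (adjusted p = 0.0858 to 0.125). Cyp4a14, a fatty acid hydroxylase gene, was lower in fed knockouts (-2.03 ± 0.28, limma adjusted p = 0.00555), a call that held with each array left out in turn. For Cyp4a14 it ended with local backgrounds kept (-2.19), in the liver channel alone (-3.24) and when only the fed groups were fitted (-2.03). In newborns none of 20 passed while 19 lay below 0, with a median of -0.42 beside -0.01 for all genes. Marker lists of cell types lay below 0 in the same livers, with 9 of 10 Kupffer cell, 8 of 8 endothelial and 7 of 7 hepatocyte markers. The Kupffer cell means were 3.69 to 3.77 in wild types and 3.02 to 3.47 in knockouts, and Marco, a scavenger receptor of these cells, was lower (-1.34 ± 0.17, limma adjusted p = 0.00842). The part of these cells in the newborn values was not tested. With fasting, 5 of 14 droplet genes passed in controls and 5 of 14 in knockouts, and 2 of 16 and 8 of 16 triglyceride synthesis genes, beside 36.8% and 35.7% of all genes. Hsd17b13, a droplet enzyme gene, fell by 1.26 ± 0.13 in controls and by 1.79 ± 0.13 in knockouts (limma adjusted p = 3.28e-05 and 3.84e-06). Dgat2, which makes the last step of triglyceride synthesis, fell by 0.77 ± 0.11 and 0.80 ± 0.11 (limma adjusted p = 0.000237 and 0.000167), and Srebf1, a regulator of lipid synthesis, by 2.52 ± 0.26 and 2.63 ± 0.26 (limma adjusted p = 2.89e-05 and 2.19e-05).

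The genes whose pattern lay nearest to that of Pparg over the 14 adult arrays were found by the root mean square difference of log2 ratios after each gene was centred on its mean. Of 16988 genes, Aatk (0.348), Tnfrsf19 (0.362), Vldlr (0.452), Aldh3a2 (0.495) and Rcan2 (0.574) lay nearest. Aatk, a kinase gene, had means of 3.99 in fasted controls, 1.74 in fasted knockouts, 4.11 in fed controls and 2.08 in fed knockouts, and its lowest control, at 3.77, lay above its highest knockout, at 2.51. Among the other members Cd36 ranked 14, Plin4 295, Plin2 3086, Plin5 10702, Cideb 12591, G0s2 14033, Cidea 15094 and Cidec 16919. These ranks describe the same arrays on which Pparg and Vldlr were chosen.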

How the data were processed

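Liver RNA of 22 samples in 6 groups was measured on 2-colour Agilent arrays. The deposited files hold scanner intensity values per spot, written by Feature Extraction 10.5.1.1 with annotation on mm9 per the file headers, while the submitters' processing notes name version 8.5.1.1. The deposited value table holds log10 ratios, equal to the LogRatio of each array.

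From the median intensities, backgrounds were corrected by normexp (offset 50) in limma 3.58.1 (R 4.3.3). Local backgrounds marked as outliers, 1.40% of liver and 2.19% of reference values, were replaced by the array's median. Loess within arrays followed, flagged spots were dropped, and log2 liver over reference was averaged per probe. RefSeq (GRCm38.p6) named 32831 of 41174 probes, and the other 8343 kept the file's names. Genes needed a liver signal well above background on 4 newborn or 3 adult arrays. The brightest probe stood for a gene. Newborn (17124 genes, 6 residual degrees of freedom) and adult arrays (17144 genes, 4 group means, 10 degrees) were fitted separately, with p adjusted by Benjamini-Hochberg. The test was tried on simulated data. The number of arrays limits the precision.

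The members and lists were chosen with earlier results of these data known. Named besides members were the list genes that passed or had the lowest p in their list, and the 5 nearest to Pparg.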

Additional observations from a re-analysis of the deposited data

Results flagged for a closer look

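Among the members' groups of 4 arrays, 40 were examined for an array far from the others and 2 held one. Chance gives about 1 in 20. Cidec read 3.84 in fasted knockout 4, against 7.06 to 7.27 in the other fasted knockouts. Plin2 read 2.47 in newborn wildtype 4, against 1.54 to 1.67 in the other newborn wild types.

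For Cidea and Plin5, every newborn knockout lay on one side of the mean of its controls and every fed knockout on the other side of theirs. Cidea differed by 1.58 in newborns and -1.51 in fed livers, where few arrays were well above background. Plin5 differed by -0.37 in newborns and 0.29 in fed livers. Its mean liver signal on the log2 intensity scale was 15.30 in newborn knockouts and 15.31 in newborn wild types. In fed knockouts and fed controls it was 14.19 and 14.26. The Plin5 reference channel was at 8.33 to 8.51 and 7.56 to 8.48 in the newborn groups, and 6.61 to 7.01 and 7.08 to 7.29 in the fed groups. The part of the reference channel in the Plin5 differences was not tested. The mean differences of Plin4, Cideb, Plin2 and G0s2 also had opposite signs in newborn and fed livers, but not on every array. None of these differences between ages was tested.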

How the results depend on the processing

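Of 10 members, 2 passed in fasted knockouts under every alternative tried, and 0 in the interaction. In newborns 0 passed, but 1 (Cidea) did in the liver channel alone and with the replicate number as a block, and 0 to 1 with an array left out. In fed knockouts 2 passed in each alternative that kept all arrays, but with only the compared groups fitted Plin4 passed (adjusted p = 0.0416) and Pparg did not (0.0689), and 2 to 3 passed with an array left out (3 without fed knockout 3, Cideb added). For fasting in controls 1 passed, 2 with local backgrounds kept, 0 with deposited log ratios, 3 in the liver channel alone and 1 to 2 with an array left out. For fasting in knockouts 2 passed, 0 with local backgrounds kept, 5 with deposited log ratios, 1 when only the compared groups were fitted, and 1 to 3 with an array left out. It was 1 without fasted knockouts 2 and 3, an alternative chosen after seeing the data. The fasting change of Vldlr in knockouts turned from 0.06 to -0.72 in the liver channel alone, and the cause was not tested. Over all genes, the newborn count of 234 was 0 with local backgrounds kept, 149 with a filter on both channels, 417 with deposited log ratios and 1586 in the liver channel alone. The fasted knockout count of 80 was 148 with local backgrounds kept (119 higher, 29 lower, against 18 and 62), 132 with slide as a block and 48 without fasted knockouts 2 and 3. The fed knockout count of 38 was 11 with local backgrounds kept, 23 with only the compared groups and 99 without fed knockout 3. Samples sharing a replicate number did not deviate together throughout (correlations of 0.49, 0.35, 0.39 and -0.24 in newborns, 0.01 to 0.10 fasted, -0.10 to 0.16 fed), and the replicate block gave 327, 62 and 30 genes. Fed arrays, with fewer spots above background, limit Cidea and Vldlr most.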
